A study of Mus musculus with 69 samples.

Results

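The values described here are those of 9 genes that encode regulators of G protein signalling (RGS proteins): Rgs2, Rgs3, Rgs4, Rgs5, Rgs10, Rgs12, Rgs16, Rgs17 and Rgs19. They were found by matching the gene identifiers of the count tables to these symbols, and each symbol matched 1 of the 56953 identifiers. The genes were set by name, with earlier results of these data known, and all 9 are reported whatever they did. Primary murine vascular cells from male C57BL/6 mice were studied by RNA sequencing in 69 libraries. Wild-type vascular smooth muscle cells (WT VSMC) and VSMC labelled EGFR-KOsmc (KO VSMC) came from thoracic and abdominal aorta. In the KO animals a floxed epidermal growth factor receptor gene (Egfr) is deleted by Cre under the SM22 promoter, which is active in smooth muscle. Endothelial cells (EC) came from heart by bead selection of cells with CD31 and without CD45, and they are labelled WT, although 2 of the 10 EC sets were taken from animals that also gave KO VSMC. Each culture was left as Control or exposed for 24 h to a metabolic stress (HG + FFA, 20 mM glucose with free fatty acids, which the labels give as 100 µM and the study's methods as 100 µM each of oleate and palmitate), to a humoral stress (AII + NA, 30 nM angiotensin II with 300 nM of a catecholamine that the labels call epinephrine and the study's methods norepinephrine) or to ALL stressors together. Albumin, the carrier of the fatty acids, was present in every condition including Control. Cells of 1 animal and 1 passage that were treated on the same day form a set, which is numbered from 1 to 4 for WT VSMC, from 5 to 8 for KO VSMC and from 9 to 18 for EC. Every set has 4 conditions except KO set 5, whose ALL library was not analysed here, EC set 10, whose Control library was not analysed here, and EC set 15, whose AII + NA library was not analysed here.

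RGS proteins speed up the hydrolysis of GTP by the alpha subunit of heterotrimeric G proteins, and so they shorten the signal of a receptor that has bound its ligand. The angiotensin II receptor type 1 and the alpha-1 adrenergic receptors act through G proteins of the Gq/11 class to raise calcium and contract smooth muscle. Rgs2, Rgs3, Rgs4, Rgs5 and Rgs16 belong to the R4 subfamily of small RGS proteins that act on Gq/11 and Gi alpha subunits. Rgs10 and Rgs12 belong to the R12 subfamily, which acts on Gi, and Rgs17 and Rgs19 to the RZ subfamily, which acts on Gi and Gz. Rgs5 is known as a marker of pericytes and arterial smooth muscle, and Rgs2 as a regulator of vascular tone and blood pressure.

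Between 17166133 and 43240489 reads per library were counted on genes. Egfr, the deleted gene, had set means of 246 to 429.8 FPM (counts divided by the library size and scaled to 1000000 counts) in WT VSMC and of 0.959 to 1.84 FPM in KO sets 6, 7 and 8, but of 36.5 FPM in KO set 5, which is 10.3% of the WT mean. The KO mean was lower by 6.79 on the log2 scale (two-sided exact permutation test over 4 against 4 sets, p = 0.0286, the smallest this test can give). The endothelial marker genes (Pecam1, Cdh5, Kdr and 8 others) summed to 57.4, 72.3 and 148 FPM in the Control libraries of EC sets 9, 13 and 11, to 503 to 4462 FPM in the other EC sets, and to 4.0 to 82.5 FPM in VSMC. The 9 smooth muscle markers summed to 384 to 1216 FPM in WT VSMC, to 1003 to 3293 FPM in KO VSMC and to 232 to 3985 FPM in EC, and fibroblast markers reached 11819 FPM in WT VSMC and 11133 FPM in EC. EC therefore overlapped with VSMC in smooth muscle and fibroblast markers, and 3 EC sets were close to VSMC in endothelial markers. In such bulk RNA a smaller number of cells of a type and less RNA per cell cannot be told apart. The labels also give EC and VSMC different batches, without saying of which step, so batch, organ and cell type cannot be told apart in a comparison of these cells.

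All 9 genes were expressed in each cell type, and the order of their levels differed between the cells. Levels of different genes were compared as FPM per kilobase of exon (FPKM), and the values below are Control medians. In WT VSMC the highest levels were those of Rgs10 (10.5 FPKM) and Rgs19 (8.89 FPKM), followed by Rgs12 (4.88 FPKM) and Rgs3 (4.6 FPKM). Rgs16 (2.97 FPKM), Rgs2 (2.11 FPKM) and Rgs5 (1.86 FPKM) were lower, and Rgs17 (0.431 FPKM) and Rgs4 (0.369 FPKM) came last. Among neighbours in this order only Rgs19 and Rgs12 did not overlap between the 4 libraries. In KO VSMC Rgs5 led (11.3 FPKM), before Rgs19 (9.90 FPKM), Rgs10 (7.93 FPKM), Rgs12 (4.5 FPKM), Rgs3 (4.18 FPKM), Rgs2 (2.97 FPKM), Rgs16 (1.45 FPKM), Rgs4 (1.28 FPKM) and Rgs17 (0.197 FPKM). Here Rgs10 and Rgs12 were the only neighbours without overlap. In EC Rgs3 led (12.5 FPKM), before Rgs19 (8.43 FPKM), Rgs12 (4.23 FPKM), Rgs10 (1.66 FPKM), Rgs16 (1.58 FPKM), Rgs5 (1.05 FPKM), Rgs2 (0.894 FPKM), Rgs4 (0.510 FPKM) and Rgs17 (0.140 FPKM). Only Rgs19 and Rgs12 were neighbours whose values did not overlap over the 9 Control libraries of EC. Rgs19 and Rgs12 thus kept a similar level in the 3 kinds of culture, while Rgs10, Rgs5 and Rgs3 changed place.

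**Figure D1:**
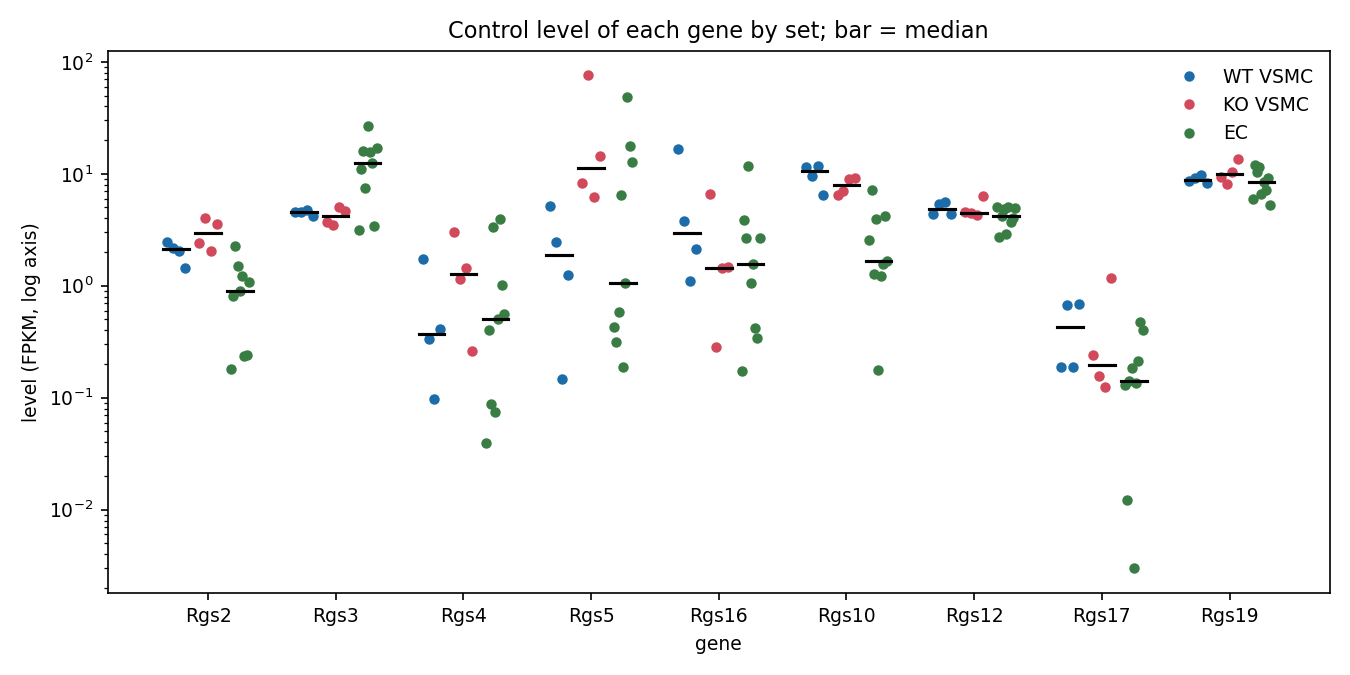
Level of each of the 9 RGS genes in Control cells, in FPKM on a log axis; each point is 1 library (4 WT VSMC, 4 KO VSMC, 9 EC) and each bar the median. Rgs19 and Rgs12 sit at similar levels in all cells, Rgs3 is led by EC at a median of 12.5 FPKM, and Rgs5 covers the widest range, from 0.146 FPKM in WT VSMC to 75.6 FPKM in KO VSMC.

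The genes differed far more in how much their level varied between sets than in how they answered the stressors. Rgs3 and Rgs19 were among the steadiest genes of WT VSMC, with a between-set SD of 0.06 and 0.08 on the log2 scale, and only 2.76% and 5.96% of all genes varied less. The median SD over all genes was 0.25. Rgs5 was at the opposite end, with an SD of 2.00 and 99.4% of genes varying less, and Rgs4 (SD 1.87) and Rgs16 (SD 1.71) were close to it. In KO VSMC, where the median SD of all genes was 0.29, Rgs3 was again steady (SD 0.08), and Rgs5 (1.79), Rgs16 (1.61), Rgs17 (1.40) and Rgs4 (1.10) were again variable. In EC the median SD was 0.46, and Rgs12 (0.33) and Rgs19 (0.37) varied less than that. Rgs5 had an SD of 2.53 in EC, larger than that of 99.2% of genes, and the SD of Rgs3 rose to 0.93. The spread within sets was taken after the means of each set and of each condition were removed, so it leaves out the mean stressor effect. For Rgs5 this SD was far smaller, with 0.42 in EC, 0.29 in WT VSMC and 0.47 in KO VSMC. The highest set mean of Rgs5 was 27.1 times the lowest in WT VSMC, 14.6 times in KO VSMC and 118 times in EC, against 1.14 times for Rgs19 in WT VSMC. Sets differ in animal, passage and day at once, and which of these moves with the level was not tested.

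**Figure D2:**
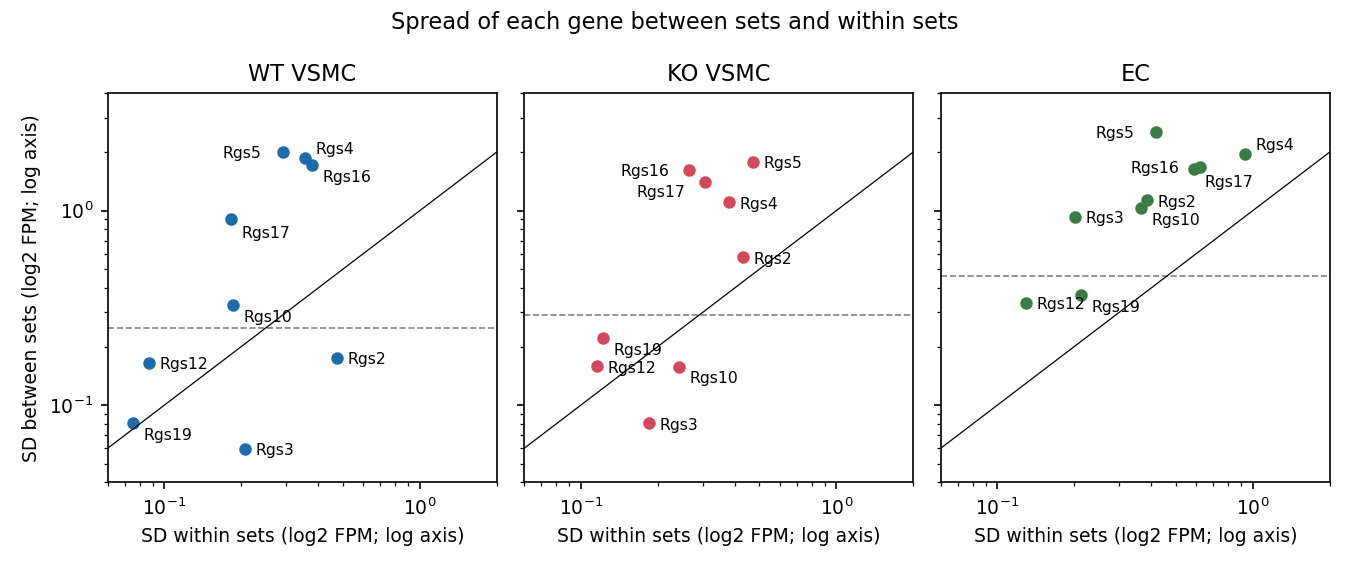
Between-set SD (vertical) against within-set SD (horizontal) of log2 FPM for the 9 RGS genes in the 3 kinds of cells, both on log axes. The within-set SD is what remained after the means of each set and of each condition were removed. Rgs5, Rgs4 and Rgs16 lie above the line of equal spread in every cell type, whereas Rgs3 lies below it in WT and KO VSMC (0.06 between and 0.21 within sets in WT VSMC).

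The stressors moved the 9 genes little. A gene was called a differentially expressed gene (DEG) where edgeR and DESeq2 both gave an FDR under 0.05 over all genes tested, log2FC was at least 0.64 in size and the mean reached 3 FPM in 1 of the groups. In 81 tests (9 genes, 3 kinds of cells, 3 stressor conditions against Control) there was 1 DEG, Rgs3 in WT VSMC under AII + NA, and the largest change was 0.82 on the log2 scale. In that comparison 0.0473% of all genes were DEG, and 0.0414% of all genes were DEG with a higher level. None of the 9 genes was a DEG in WT VSMC under HG + FFA (0.284% of all genes) or ALL (2.24%), in KO VSMC under HG + FFA (0.291%), AII + NA (0%) or ALL (0.314%), or in EC under HG + FFA (0.653%), AII + NA (0%) or ALL (0.636%). The group means of Rgs4 in WT VSMC (at most 2.00 FPM) and of Rgs17 in EC (at most 2.57 FPM) stayed under 3 FPM. Their tests in those cells therefore could not give a DEG, whatever the change. Without the limit on log2FC, 6 of the 81 tests passed both FDR thresholds. These were Rgs3 under AII + NA and ALL in WT VSMC and under HG + FFA and ALL in EC, Rgs5 under ALL in WT VSMC and Rgs12 under HG + FFA in EC. The share of all genes that passed in this way was 0.0532% for AII + NA and 6.69% for ALL in WT VSMC, and 3.47% for HG + FFA and 3.1% for ALL in EC. At an unadjusted edgeR p under 0.05 stood 2, 3 and 6 of the 9 genes in WT VSMC under HG + FFA, AII + NA and ALL (background 11.2%, 9.42% and 21.7% of genes), 1, 0 and 2 in KO VSMC (12.4%, 9.76% and 10.5%) and 2, 0 and 2 in EC (16.9%, 6.67% and 16.2%). The 3 stressor conditions of a cell type share their Control libraries.

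**Figure D3:**
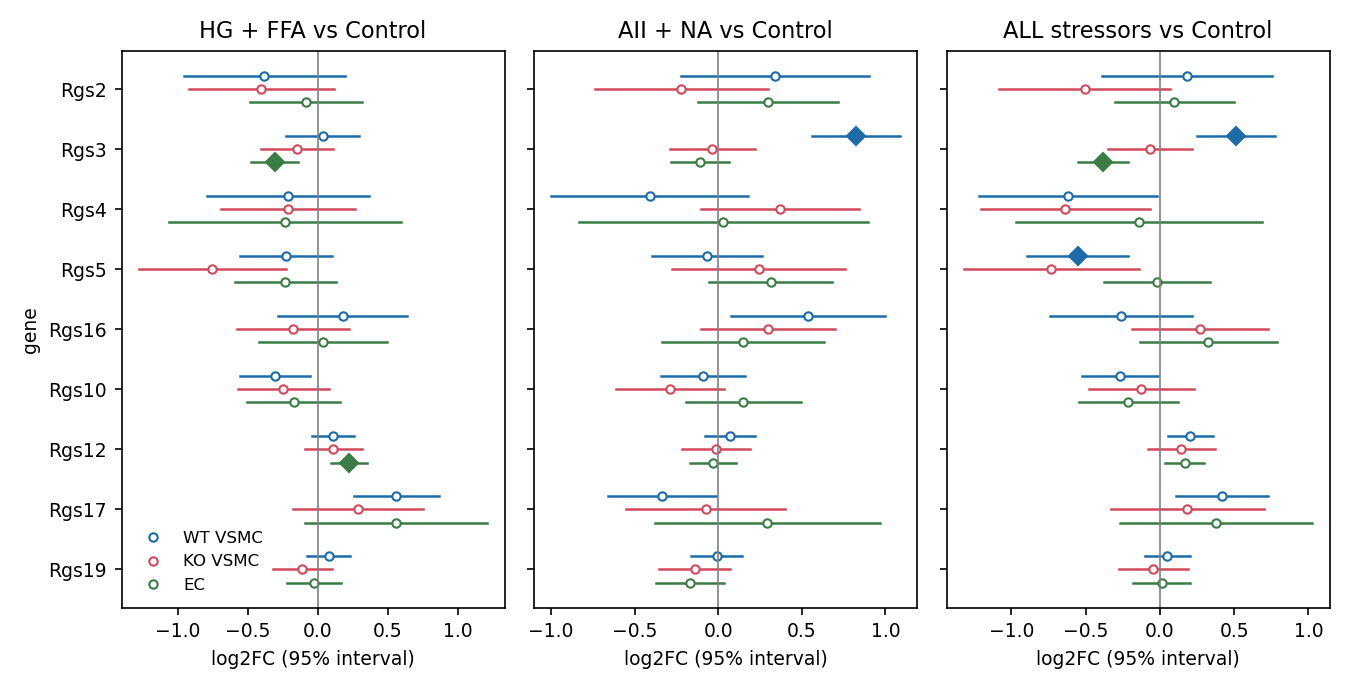
log2FC against Control with its 95% confidence interval (edgeR, set as block) for the 9 RGS genes under each stressor condition in the 3 kinds of cells. The point that stands apart is Rgs3 in WT VSMC under AII + NA, at 0.82 with an interval of 0.56 to 1.09, and the points of Rgs19 stay close to 0.

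Rgs3 is an R4 member that is made from several start sites, in long and short forms. The gene (ENSMUSG00000059810) lies on chromosome 4 from 62478084 to 62622238 on the plus strand of GRCm39. RefSeq promoters of 2 starts were matched to that build, 59825 bases apart, and both lie at or within the annotated gene. They are shown because the gene counts add the RNA of both starts, which these counts cannot separate. The 250 bases before the first start (chr4:62477834-62478083) and before the second start (chr4:62537659-62537908) are given 5′ to 3′ on the plus strand, with TATAAA in capitals.
Rgs3 first start: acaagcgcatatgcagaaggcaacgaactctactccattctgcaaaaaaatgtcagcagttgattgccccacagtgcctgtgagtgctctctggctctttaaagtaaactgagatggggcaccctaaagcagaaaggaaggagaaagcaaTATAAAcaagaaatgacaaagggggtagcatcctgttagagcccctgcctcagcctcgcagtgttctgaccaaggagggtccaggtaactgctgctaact
Rgs3 second start: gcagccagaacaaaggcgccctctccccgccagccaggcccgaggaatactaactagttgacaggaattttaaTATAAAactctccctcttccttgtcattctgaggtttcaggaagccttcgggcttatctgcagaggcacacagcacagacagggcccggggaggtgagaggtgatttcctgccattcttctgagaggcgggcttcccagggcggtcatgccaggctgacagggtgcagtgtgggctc
TATAAA stands 100 to 95 bases before the first start and 177 to 172 bases before the second. On both strands, 12.4% of 32851 promoters of the same length held TATAAA. The letters TGACGTCA (cAMP response element, in 1.55% of promoters), TGANTCA (AP-1 site, 6.75%) and the CArG box (1.47%) were not in either window.

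Rgs3 rose in WT VSMC when angiotensin II and the catecholamine were present. Control cells of sets 1 to 4 had 49.98, 49.9, 51.3 and 45.5 FPM. With AII + NA the same sets had 82.2, 101, 68.6 and 97.8 FPM, so the lowest treated library was above the highest Control library. Among all genes 0.728% were higher without overlap in this comparison. log2FC was 0.82 (SE 0.12, 95% confidence interval 0.56 to 1.09, 1.77-fold, n = 4 sets, higher in 4 of 4), with an edgeR FDR of 0.0229 and a DESeq2 FDR of 4.35e-07, and the edgeR p was the fourth smallest of 16905 genes. The edgeR FDR was 0.0818 without set 1, 0.224 without set 2 and 0.0967 without set 4, at log2FC values of 0.75 to 0.96 over the 4 fits that each left out a set, and 0.268 without the set as block. Under HG + FFA the values were 56.7, 45.7, 51.6 and 47.3 FPM, on both sides of Control, with log2FC 0.03 (SE 0.12). Under ALL stressors they were 60.6, 66.2, 68.3 and 87.4 FPM, again all above Control. The log2FC under ALL was 0.51 (SE 0.12, 1.43-fold, 4 of 4 sets higher, edgeR FDR 0.0185, DESeq2 FDR 0.00188), below the limit for a DEG, and without set 4 it was 0.37 with an edgeR FDR of 0.144. Against HG + FFA, ALL was higher by 0.48 (edgeR FDR 0.137, DESeq2 FDR 0.0180, 4 of 4 sets), where 0.0296% of all genes were DEG, 0.0237% were DEG with a higher level and 0.0414% passed both FDR thresholds. The effect of ALL was lower than the sum of both single effects by 0.34 on the log2 scale, which did not pass (edgeR p = 0.0642, FDR 0.9998).

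The sum of the 9 smooth muscle markers also rose in all 4 WT sets with AII + NA, and with ALL in every set but set 3. In sets 1 to 4 it went from 948, 509.8, 1216 and 384 FPM in Control to 1366, 874, 2114.1 and 1847 FPM with AII + NA, and it stood at 1192, 1215, 1124 and 1599.7 FPM with ALL. Of these markers Mylk, which encodes a myosin light chain kinase, was a DEG with AII + NA (log2FC 1.09, SE 0.18, edgeR FDR 0.0441). The sum of 5 cardiomyocyte markers rose as well, from 3.42, 15.9, 21.6 and 30.1 FPM in Control to 4.55, 22, 42.99 and 123 FPM with AII + NA. The part of these markers in the change of Rgs3 was not tested.

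In KO VSMC no change of Rgs3 was detected. Control cells of sets 5 to 8 had 40.3, 38.1, 54.8 and 50.6 FPM, the AII + NA cells 47.5, 44.4, 48.3 and 38.5 FPM, and the HG + FFA cells 48.0, 38.3, 40.4 and 38.6 FPM. With ALL, sets 6 to 8 had 41.2, 41.2 and 46.7 FPM. All 15 libraries thus lay between 38.1 and 54.8 FPM, around the level of WT Control cells. log2FC was -0.04 under AII + NA (95% confidence interval -0.29 to 0.22), -0.07 under ALL (-0.35 to 0.21) and -0.15 under HG + FFA (SE 0.12), and Control levels differed between the genotypes by -0.10 (SE 0.15). The AII + NA effect itself was larger in WT than in KO VSMC by 0.87 (SE 0.18, 95% confidence interval 0.50 to 1.24). This difference had the smallest edgeR p of 18339 genes (5.68e-05) but did not pass the threshold, with an edgeR FDR of 0.395 and a DESeq2 FDR of 0.0822. It was 0.76 to 1.01 when a set was left out, and without KO set 5, the set with remaining Egfr RNA, it was 0.95 (edgeR FDR 0.0610, DESeq2 FDR 0.00257). Without that set DESeq2 alone called 399 of 18164 genes, against 0 of 18339 with all sets. With no filter on low counts the edgeR FDR of Rgs3 was 7.69e-06 and its DESeq2 FDR 0.0774, so it passed in edgeR and not in DESeq2. In that fit 350 of 35709 genes had an edgeR FDR under 0.05, against 0 with the filter. For ALL the difference was 0.58 (SE 0.19, edgeR p = 0.00482, FDR 0.404), and the smooth muscle marker sum of KO sets 5 to 8 went from 3293, 1131, 1998 and 1003 FPM in Control to 3452, 1535, 2084 and 1071 FPM with AII + NA. A genotype difference of the AII + NA effect was called for 0% of all genes.

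In EC Rgs3 was higher in level and moved down with HG + FFA. The 9 Control libraries ranged from 34.3 to 288 FPM with a median of 136 FPM, the 10 HG + FFA libraries from 34.8 to 219 FPM with a median of 110.5 FPM, the 9 AII + NA libraries from 23.0 to 283 FPM with a median of 115 FPM, and the 10 ALL libraries from 26.9 to 215 FPM with a median of 105 FPM. Sets 9 and 17 were low and set 14 was high in every condition, so the groups overlapped widely and the change is seen within sets. log2FC was -0.31 under HG + FFA (SE 0.08, lower in 7 of 9 sets, edgeR FDR 0.0288, DESeq2 FDR 0.00872) and -0.38 under ALL (SE 0.08, lower in 8 of 9 sets, edgeR FDR 0.00652, DESeq2 FDR 0.000767). Both were below the limit for a DEG. Under AII + NA it was -0.11 (7 of 8 sets lower, edgeR FDR 0.775). With the animal in place of the set as block the edgeR FDR was 0.590 for HG + FFA and 0.518 for ALL, and with complete sets alone it was 0.101 for HG + FFA. Without EC sets 9, 11 and 13, which had the least endothelial marker RNA, log2FC was -0.36 (edgeR FDR 0.0131) and -0.46 (edgeR FDR 0.00185). Some markers of other cells fell with HG + FFA too. The fibroblast genes Col1a1 (log2FC -0.73, SE 0.19) and Pi16 (-1.03, SE 0.29) and the pericyte gene Cspg4 (-1.37, SE 0.36) were DEG with a lower level. The sum of all pericyte markers moved in both directions. It rose from 788 to 1056 FPM in set 11 and from 525 to 805 FPM in set 16. It fell from 936 to 670 FPM in set 13 and from 532 to 450 FPM in set 14. The fibroblast marker sum had a median of 3327 FPM over the 9 Control libraries and of 2524 FPM over the 10 HG + FFA libraries. Set 10 has no Control library here, and over the 9 sets with both libraries the HG + FFA median was 2953 FPM. The part of these markers in the change of Rgs3 was not tested.

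The direction of Rgs3 thus differed between WT VSMC and EC, and this difference was tested in a joint fit that was added after the values had been seen. WT VSMC exceeded EC in the effect of AII + NA by 0.93 (SE 0.16, edgeR FDR 0.00387, DESeq2 FDR 4.24e-05) and in that of ALL by 0.89 (SE 0.15, edgeR FDR 0.00139, DESeq2 FDR 2.39e-05). The other 8 genes were not called, and the background was 0.0465% and 0.418% of genes. For AII + NA the edgeR FDR was 0.150 without WT set 2 and 0.0930 without WT set 4, and without EC sets 9, 11 and 13 the differences were 0.88 (edgeR FDR 0.0103) and 0.98 (edgeR FDR 0.000257). For HG + FFA it was 0.35 (edgeR p = 0.0302, FDR 1). The Control level of Rgs3 was higher in EC than in WT VSMC by 1.48 (SE 0.48, 2.78-fold, n = 9 and 4, edgeR FDR 0.0585, DESeq2 FDR 0.0103), which is not a DEG. Without EC sets 9, 11 and 13 this was 1.77 (edgeR FDR 0.00980, DESeq2 FDR 0.000123). With the libraries of EC sets 17 and 18, which are from 1 animal, added together it was 1.51 (edgeR FDR 0.0348, DESeq2 FDR 0.00259).

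**Figure D4:**
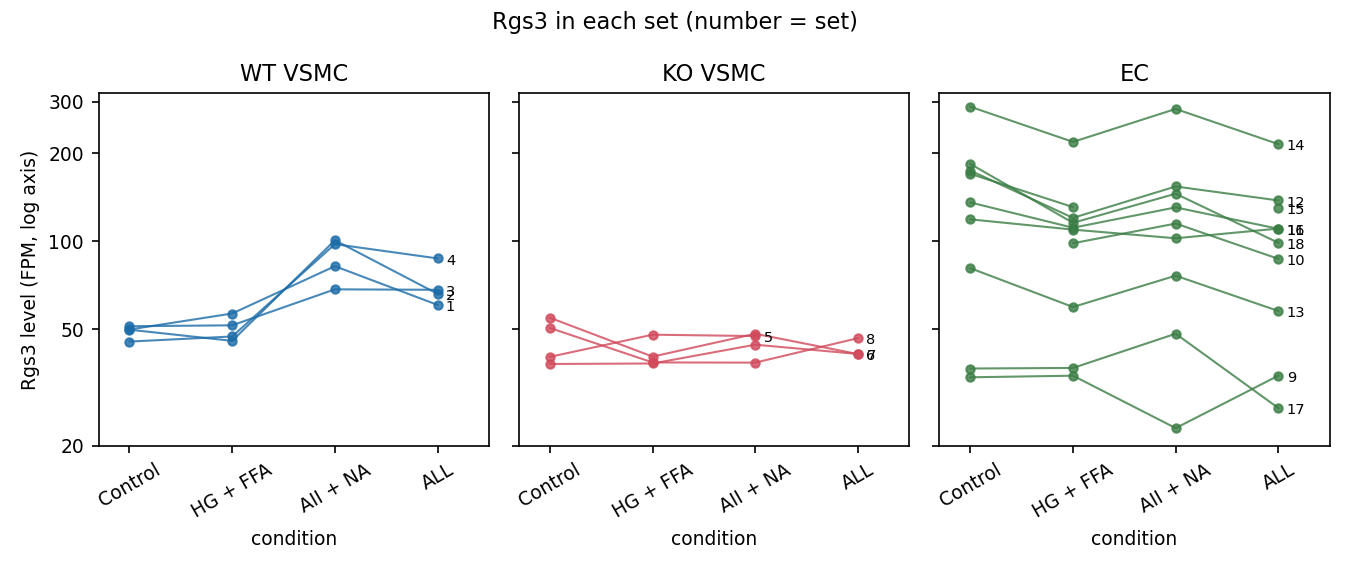
Rgs3 in every library (FPM, log axis) in Control cells and under HG + FFA, AII + NA or ALL, with 1 line per set, in WT VSMC (sets 1 to 4), KO VSMC (sets 5 to 8) and EC (sets 9 to 18). All 4 WT lines rise to 68.6 FPM or more with AII + NA, the KO lines stay between 38.1 and 54.8 FPM, and the EC lines run nearly parallel at very different heights.

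Rgs5, the R4 member used as a pericyte marker, varied widely between the sets of each cell type. The gene (ENSMUSG00000026678) lies on chromosome 1 from 169483036 to 169524887 on the plus strand, next to Rgs4. In WT VSMC the Control cells of sets 1 to 4 had 31.6, 15.2, 0.898 and 7.73 FPM. In KO VSMC those of sets 5 to 8 had 50.3, 465, 37.8 and 88.2 FPM, so every KO Control library lay above every WT Control library. Among all genes 2.77% were higher in KO VSMC without overlap. The log2FC for KO against WT VSMC in Control was 3.51 (SE 1.10, 95% confidence interval 1.03 to 6.00, 11.4-fold), which did not pass the threshold (edgeR p = 0.0106, FDR 0.360, DESeq2 FDR 0.0729). It ranged from 2.1 to 4.34 when a library was left out. In this comparison 12.2% of all genes had an unadjusted p under 0.05 and 0.00622% were DEG. In simulated data of this comparison 0% of genes changed by 1 on the log2 scale were recovered. Recovery of a difference as large as that of Rgs5, in a gene as variable between sets, was not tested. The pericyte marker sum in the same Control libraries was 682 to 883 FPM in WT VSMC and 465 to 801 FPM in KO VSMC, and 788 FPM in KO set 6, the set with the most Rgs5. Of the 8 genes on this list, Kcnj8 ranged from 0.109 to 13.5 FPM in WT and from 0.800 to 9.28 FPM in KO Control cells, and Abcc9 from 0.0817 to 24.4 FPM and from 0.233 to 13.8 FPM. Higd1b reached at most 0.163 FPM and Vtn at most 0.991 FPM in Control cells. The fibroblast marker sum was 4866 to 11819 FPM in WT Control cells. In KO Control cells it was 6537 FPM in set 5 and 1484 to 2654 FPM in sets 6 to 8. The smooth muscle marker sum was 384 to 1216 FPM in WT and 1003 to 3293 FPM in KO Control cells. The part of these markers in the difference of Rgs5 was not tested.

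The Control libraries of EC held from 1.17 to 299 FPM of Rgs5 with a median of 6.47 FPM. EC set 16 was the highest, sets 17, 18 and 13 followed with 109, 77.9 and 39.3 FPM, and the other 5 sets were at 6.47 FPM or below. EC and WT VSMC differed by 2.14 on the log2 scale, less than the spread allowed to pass (SE 1.46, edgeR FDR 0.339). The pericyte marker sum of EC ranged from 383 to 936 FPM and was 525 FPM in set 16.

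Of the 9 stressor tests of Rgs5 against Control, 1 passed both FDR thresholds, a lower level in WT VSMC under ALL. In WT VSMC with ALL, sets 1 to 4 had 24.7, 9.47, 1.15 and 3.63 FPM, lower than Control in 3 of 4 sets. log2FC was -0.55 (SE 0.16, 0.681-fold, edgeR FDR 0.0466, DESeq2 FDR 0.0199), below the limit for a DEG. The edgeR FDR was 0.124, 0.178 and 0.246 without sets 1, 2 and 4, whereas without set 3, whose values were the lowest, log2FC was -0.67 and Rgs5 was a DEG. In the same comparison the pericyte gene Kcnj8 (log2FC -1.44, SE 0.29, edgeR FDR 0.00730) and the endothelial gene Cdh5 (-1.17, SE 0.25, edgeR FDR 0.00994) were DEG with a lower level. The pericyte marker sum of sets 1 to 4 was 701, 853, 682 and 883 FPM in Control and 930.1, 878, 746 and 771 FPM with ALL. The endothelial marker sum was 13.9, 82.5, 3.97 and 11.1 FPM in Control. With ALL it was 12.4, 39.4, 2.59 and 12.4 FPM, so it was higher in set 4. The part of these markers in the change of Rgs5 was not tested. WT cells with HG + FFA had 30.5, 13.1, 0.921 and 5.24 FPM of Rgs5 and with AII + NA 30.9, 16.8, 1.38 and 4.61 FPM. Set 4 was lower than Control in both conditions and set 3 was higher with AII + NA, and log2FC was -0.23 (SE 0.15) and -0.07 (SE 0.16). In KO VSMC with HG + FFA, sets 5 to 8 had 31.9, 274, 11.7 and 96.2 FPM, lower in 3 of 4 sets, with log2FC -0.76 (SE 0.25, edgeR p = 0.00769, FDR 0.269). Both FDR thresholds were passed by 0.428% of all genes there. With ALL, KO sets 6 to 8 had 283, 9.89 and 109 FPM, with log2FC -0.73 (SE 0.28, edgeR p = 0.0179, FDR 0.359). With AII + NA the KO sets had 58.0, 473, 42.7 and 142 FPM, higher in 4 of 4 sets, with log2FC 0.24 (SE 0.24, edgeR FDR 0.681). Set 8 went against the other KO sets with HG + FFA and with ALL. In EC log2FC was -0.23 (SE 0.18), 0.31 (SE 0.18) and -0.02 (SE 0.17) for HG + FFA, AII + NA and ALL, and none passed. The KO effects did not differ detectably from those of WT VSMC, with a difference of 0.53 (95% confidence interval -0.15 to 1.2) for HG + FFA.

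**Figure D5:**
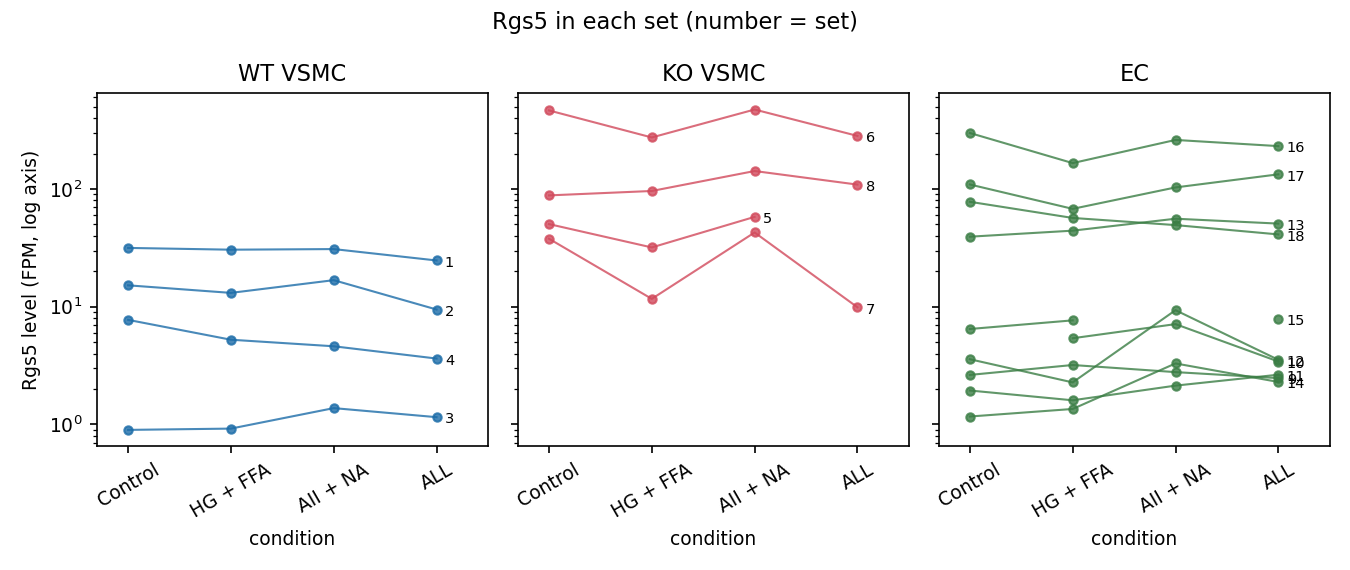
Rgs5 in every library (FPM, log axis) in Control cells and under HG + FFA, AII + NA or ALL, with 1 line per set, for the 3 kinds of cells. The lines of a cell type are stacked over more than an order of magnitude and keep their order across most conditions; in Control the 4 KO sets (37.8 to 465 FPM) lie above the 4 WT sets (0.898 to 31.6 FPM).

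Rgs16, Rgs4 and Rgs2 are the other R4 members. Rgs16 (ENSMUSG00000026475, chromosome 1, 153616091 to 153621228, plus strand) shares 18.7% of its exonic bases with a gene on the opposite strand, and the strand setting of the counting is not given in the sources used here, so part of its counts may belong there. In WT Control cells of sets 1 to 4 it had 39.1, 8.99, 2.59 and 5.02 FPM, with set 1 above the rest in every condition. With AII + NA these sets had 45.3, 17.3, 2.59 and 8.05 FPM. log2FC was 0.54 (SE 0.22, edgeR p = 0.0248, FDR 0.430). With ALL they had 38.5, 5.23, 2.30 and 4.56 FPM, lower than Control in 4 of 4 sets (log2FC -0.26, SE 0.22). With HG + FFA they had 58.6, 7.86, 3.29 and 4.21 FPM, higher in sets 1 and 3 (log2FC 0.18, SE 0.22). The effect of ALL was lower than the sum of the single effects by 0.98 (SE 0.31, edgeR p = 0.00621), with an edgeR FDR of 0.9998. In WT VSMC 1.72% of all genes had an unadjusted p under 0.05 in this test. In KO VSMC the Control values were 15.6, 0.662, 3.37 and 3.45 FPM and the AII + NA values 16, 1.29, 4.16 and 3.93 FPM, higher in 4 of 4 sets without passing (log2FC 0.30, SE 0.19). EC Control libraries ranged from 0.411 to 27.4 FPM with a median of 3.71 FPM, and set 13 was the highest. log2FC of Rgs16 in EC was 0.03 (SE 0.23), 0.15 (SE 0.24) and 0.33 (SE 0.23) with HG + FFA, AII + NA and ALL, and in KO VSMC -0.18 (SE 0.19) with HG + FFA and 0.27 (SE 0.21) with ALL. Its Control level differed from that of WT VSMC by -1.28 (SE 1.01) in KO VSMC and by -1.11 (SE 0.91) in EC, and neither passed.

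Rgs4 (ENSMUSG00000038530, chromosome 1, 169569046 to 169575218, minus strand) had the lowest Control median in FPKM of the R4 members in all 3 kinds of cells. WT Control cells had 5.40, 1.03, 0.299 and 1.26 FPM, and with ALL 5.71, 0.565, 0.108 and 0.419 FPM. Set 1 stayed level while the other 3 sets were lower, with log2FC -0.62 (SE 0.28, edgeR p = 0.0439, FDR 0.214). KO Control cells had 9.31, 3.54, 4.44 and 0.803 FPM, and with ALL sets 6 to 8 had 2.51, 1.63 and 1.15 FPM, with log2FC -0.64 (SE 0.27, edgeR p = 0.0302, FDR 0.422). With AII + NA the KO sets had 13.2, 5.28, 3.40 and 1.79 FPM, higher in 3 of 4 sets. The effect of ALL in KO VSMC was lower than the sum of the single effects by 0.80 (edgeR p = 0.0365, FDR 0.658), a test in which 6.59% of all genes had an unadjusted p under 0.05. In the comparison of ALL with HG + FFA in KO VSMC, where this share was 2.91%, none of the 9 genes had an unadjusted p under 0.05. The AII + NA effect was lower in WT than in KO VSMC by 0.77 on the log2 scale (SE 0.36, edgeR p = 0.0443, FDR 0.416), so no change of Rgs4 passed. EC Control libraries ranged from 0.123 to 12.2 FPM with a median of 1.58 FPM, and log2FC of Rgs4 in EC was -0.24 (SE 0.41), 0.03 (SE 0.42) and -0.14 (SE 0.41) with HG + FFA, AII + NA and ALL. With HG + FFA it was -0.21 in both genotypes (SE 0.27 in WT and 0.23 in KO VSMC), and with AII + NA -0.41 (SE 0.28) in WT and 0.37 (SE 0.22) in KO VSMC. The Control level of Rgs4 differed from that of WT VSMC by 1.16 (SE 0.88) in KO VSMC and by 0.79 (SE 1.12) in EC, and neither passed.

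Rgs2 (ENSMUSG00000026360, chromosome 1, 143875076 to 143879899, minus strand), which shares 11.3% of its exonic bases with another gene, had no comparison with an unadjusted p under 0.05. WT Control cells had 8.86, 7.85, 7.43 and 5.24 FPM, and with AII + NA the values were 9.76, 10.3, 7.04 and 10.4 FPM, higher in 3 of 4 sets (log2FC 0.34, 95% confidence interval -0.22 to 0.90). With ALL they were 4.16, 9.57, 8.28 and 12.8 FPM, lower in set 1 and higher in the others (log2FC 0.18, SE 0.27), and with HG + FFA log2FC was -0.38 (SE 0.27). KO Control cells had 8.72, 14.5, 7.44 and 12.8 FPM, with a difference to WT VSMC of 0.56 (SE 0.27, edgeR p = 0.0697, FDR 0.423). EC Control libraries had 0.658 to 8.29 FPM with a median of 3.24 FPM, and the difference to WT VSMC was -1.10 (SE 0.55, edgeR FDR 0.195). For HG + FFA, AII + NA and ALL, log2FC of Rgs2 was -0.40 (SE 0.24), -0.22 (SE 0.24) and -0.51 (SE 0.27) in KO VSMC and -0.09 (SE 0.20), 0.30 (SE 0.21) and 0.10 (SE 0.20) in EC.

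Among the R12 members, Rgs10, which is abundant in leukocytes, was lower in EC than in WT VSMC. The gene (ENSMUSG00000030844) lies on chromosome 7 from 127975345 to 128020482 on the minus strand. WT Control cells had 25.7, 21.2, 26.0 and 14.4 FPM, and the 9 Control libraries of EC ranged from 0.397 to 15.8 FPM with a median of 3.71 FPM. EC set 11 was the only EC library above the lowest WT library. log2FC was -1.89 (SE 0.58, 0.270-fold, edgeR FDR 0.0484, DESeq2 FDR 0.0131), which is a DEG, as were 9.9% of all genes in this comparison. The edgeR FDR rose to values between 0.0803 and 0.121 when a WT library was left out, was 0.0541 with EC sets 17 and 18 added together and 0.0514 with no filter on low counts, and without EC sets 9, 11 and 13 log2FC was -2.50 (edgeR FDR 0.00980, DESeq2 FDR 9.81e-05). The leukocyte marker sum was 26.3 to 225 FPM in WT VSMC and 5.0 to 104 FPM in EC, and of 5 leukocyte markers tested Cd68, a macrophage gene, was a DEG with a lower level in EC (log2FC -1.81, SE 0.51, edgeR FDR 0.0365). The lymphocyte gene Cd3e was at 0 in all Control libraries. The part of leukocyte RNA in the difference of Rgs10 was not tested. With HG + FFA the WT sets had 24.4, 16.3, 17.4 and 12.5 FPM of Rgs10, lower in 4 of 4 sets, without passing (log2FC -0.31, SE 0.12, edgeR p = 0.0205, FDR 0.324). With ALL they had 17.3, 21.4, 20.1 and 12.7 FPM, lower in 3 of 4 sets (log2FC -0.27, SE 0.12, edgeR p = 0.0383, FDR 0.200), and with AII + NA log2FC was -0.09 (SE 0.12). KO Control cells had 14.4 to 20.5 FPM (difference to WT VSMC -0.32, SE 0.23). For HG + FFA, AII + NA and ALL, log2FC of Rgs10 was -0.25 (SE 0.15), -0.29 (SE 0.15) and -0.13 (SE 0.17) in KO VSMC and -0.17 (SE 0.16), 0.15 (SE 0.17) and -0.21 (SE 0.16) in EC, and none passed.

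Rgs12 (ENSMUSG00000029101, chromosome 5, 35106715 to 35196988, plus strand) encodes a large protein with further domains beside the RGS domain, and 7.0% of its exonic bases are shared with another gene. In EC its Control libraries had 23.2 to 43.2 FPM with a median of 36.2 FPM, and its HG + FFA libraries 24.4 to 53.8 FPM with a median of 42.1 FPM. The rise within sets was small, with log2FC 0.22 (SE 0.06, 1.17-fold, higher in 7 of 9 sets, edgeR FDR 0.0477, DESeq2 FDR 0.0195), below the limit for a DEG. The edgeR FDR was 0.0644 without EC sets 9, 11 and 13, 0.160 with the animal as block and 0.358 with no filter on low counts. With ALL it was 0.17 (SE 0.06, edgeR p = 0.0139, FDR 0.165). WT Control cells had 37.2, 46, 48.3 and 37.6 FPM and with ALL 46.4, 50.9, 53.3 and 43.6 FPM, higher in 4 of 4 sets (log2FC 0.21, SE 0.07, edgeR p = 0.0106, FDR 0.0948). KO Control cells had 36.4 to 54.7 FPM, and no KO comparison had an unadjusted p under 0.05 (log2FC 0.11, -0.01 and 0.14 for HG + FFA, AII + NA and ALL). The other values of log2FC for Rgs12 were 0.11 (SE 0.07) and 0.07 (SE 0.07) in WT VSMC under the metabolic and the humoral stress, and -0.03 (SE 0.07) under the latter in EC. Between cell types and genotypes the Control level hardly moved, with -0.23 (SE 0.19) for EC and -0.01 (SE 0.18) for KO against WT VSMC.

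The RZ members differed from each other in level and in steadiness. Rgs17 (ENSMUSG00000019775, chromosome 10, 5775663 to 5872407, minus strand) was low, and WT Control cells had 1.68, 5.97, 1.66 and 6.14 FPM. With HG + FFA these sets had 3.18, 9.57, 2.65 and 6.56 FPM, and with ALL 2.95, 8.90, 2.16 and 6.05 FPM. log2FC with HG + FFA was 0.56 (SE 0.14, 1.48-fold, 4 of 4 sets higher, edgeR p = 0.00134, FDR 0.108, DESeq2 FDR 0.0419), so it passed in DESeq2 and not in edgeR. With ALL it was 0.42 (SE 0.15, edgeR FDR 0.0995). With AII + NA the WT sets had 1.45, 4.59, 1.54 and 4.20 FPM, lower in 4 of 4 sets (log2FC -0.34, SE 0.15, edgeR p = 0.0429, FDR 0.511). Sets 2 and 4 were above sets 1 and 3 in every condition. In KO VSMC set 8 stood apart with 10.4 FPM in Control, against 1.10 to 2.12 FPM in the other sets. EC set 14 had 0 counts of Rgs17 in its 4 libraries, where 3 counts would correspond to 0.0700 to 0.127 FPM, and the other Control libraries of EC had 0.108 to 4.22 FPM. In EC log2FC with HG + FFA was 0.56 (SE 0.32, edgeR FDR 0.388), and with AII + NA and ALL it was 0.29 (SE 0.33) and 0.38 (SE 0.32). In KO VSMC it was 0.29 (SE 0.22), -0.08 (SE 0.22) and 0.18 (SE 0.24) for HG + FFA, AII + NA and ALL. The Control level of Rgs17 differed from that of WT VSMC by -0.04 (SE 0.79) in KO VSMC and by -1.18 (SE 0.87) in EC.

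Rgs19 (ENSMUSG00000002458, chromosome 2, 181330212 to 181335997, minus strand) shares 15.8% of its exonic bases with Tcea2 on the opposite strand. It had 23.6 to 27.9 FPM in WT Control cells, 23.0 to 38.5 FPM in KO Control cells and 14.9 to 34.3 FPM in EC Control cells. No comparison of Rgs19 had an unadjusted p under 0.05. With AII + NA log2FC was -0.01 in WT VSMC (95% confidence interval -0.16 to 0.14), -0.14 in KO VSMC (-0.35 to 0.07) and -0.17 in EC (-0.37 to 0.03). With HG + FFA it was 0.08 (SE 0.07), -0.11 (SE 0.10) and -0.03 (SE 0.10) in the same order of cells, and with ALL 0.05 (SE 0.07), -0.04 (SE 0.11) and 0.01 (SE 0.10). The Control level of Rgs19 differed from that of WT VSMC by 0.20 (SE 0.18) in KO VSMC and by -0.07 (SE 0.21) in EC. In WT VSMC the standard errors of Rgs19 and Rgs12 were both 0.07, the smallest of the 9 genes.

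Other genes of the same signalling path are given as counts from lists. Of 14 further RGS genes and binding proteins, 6 to 8 passed the filter on low counts in the stressor comparisons and none was a DEG. Of 16 G alpha genes, 14 were tested and none was a DEG in a stressor comparison. Of 17 G beta and gamma genes, Gng4, a gamma subunit, fell in WT VSMC under ALL (log2FC -1.14, SE 0.22, edgeR FDR 0.00543). Of 14 other brakes on receptor signalling (receptor kinases, arrestins and similar proteins) none was a DEG in a stressor comparison. The list medians of WT VSMC under AII + NA were -0.04 for the further RGS genes, -0.02 for G alpha and 0.00 for the other brakes, against -0.01 for all genes and -0.01 for the 9 RGS genes described here.

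In WT VSMC under ALL 4 of 9 receptor genes tested were DEG and none of the 9 RGS genes was, a difference that was not tested. Of 12 receptor genes for angiotensin II and catecholamines on the list, these 9 passed the filter on low counts. Under AII + NA 1 rose, Agtr1b, which encodes a type 1 angiotensin II receptor (log2FC 1.44, SE 0.20, edgeR FDR 0.0229). Under ALL, where 1.25% of all genes were DEG with a higher level, 3 rose, Agtr1b (1.40, SE 0.20), Agtr1a (0.93, SE 0.18) and the alpha-1 receptor gene Adra1b (0.89, SE 0.15), and 1 fell, the type 2 receptor gene Agtr2 (-1.48, SE 0.26). The medians of this list were 0.27 and 0.49. None of 9 receptors tested in KO VSMC and none of 7 tested in EC was a DEG in a comparison with Control. The Control level of Agtr1a was 4.85 to 17.8 FPM in WT VSMC and 0.100 to 1.74 FPM in KO VSMC, with log2FC -4.08 (SE 0.74), an edgeR FDR of 0.199 and a DESeq2 FDR of 6.67e-07. Of 20 effectors of G alpha, Adcy1, an adenylyl cyclase, rose in WT VSMC under ALL (log2FC 1.87, SE 0.23, edgeR FDR 0.000433), in KO VSMC under HG + FFA (1.32, SE 0.18) and ALL (1.23, SE 0.19) and in EC under HG + FFA (0.72, SE 0.14), and no other effector was a DEG in these comparisons.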

How the data were processed

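Poly(A) RNA of each culture was sequenced as paired-end reads, aligned by the authors to mm39 with HISAT2 2.1.0 and counted per gene with featureCounts over exons, multi-mapping reads included. The deposited values are raw counts per Ensembl gene, in 1 table per kind of cells, and the strand setting is not given in the sources used here. From the deposited counts, edgeR 4.0.16 (TMM factors, filter on low counts, quasi-likelihood test, Benjamini-Hochberg FDR over all genes tested) was run on each cell type with the condition and the set as terms, as the study's methods pair the samples, and DESeq2 1.42.0 with the same design (R 4.3.3). FPM are counts divided by the TMM-scaled library size over all 69 libraries and scaled to 1000000 counts, and a pseudocount of 0.1 FPM was used where logs were taken. Genotype differences of an effect were tested in a joint fit of WT and KO VSMC. Control levels were compared without a block. The p-values of the stressor effects rest on the spread within sets, and those of the Control levels on the spread between sets.

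Sets share animal, passage and day. Deviations from the group mean correlated within sets (mean r 0.788, 0.772 and 0.820 in WT VSMC, KO VSMC and EC, lowest pair 0.473), which is why the set is a block. Between sets the mean r was -0.250, -0.255 and -0.0848. Centring on the group mean makes these values negative in advance, so they do not measure how alike the sets are. No 2 libraries of a group held counts that agree within sampling noise. Exon lengths and positions are from GENCODE vM39, and 0.024% of counts were on identifiers outside it. Promoters are RefSeq sequences from a GRCm38.p6 table, placed on GRCm39 by exact match. Totals of 17166133 to 43240489 counts make 3 counts worth at most about 0.127 FPM in the libraries where a gene was at 0, and this floor covers counting error only. The fits were tested on simulated data, where 95.5% of genes changed by 1 on the log2 scale were recovered for ALL against Control in WT VSMC, 84% for the genotype difference and 17.5% for EC against WT VSMC in Control.

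All 9 RGS genes were tested in every comparison and are given for each stressor against Control and for Control levels between cells, with the further comparisons given where the unadjusted p was under 0.05, and of each other list up to 4 DEG are named by size of log2FC. The members and lists were chosen with earlier results of these data known. Alternatives were edgeR or DESeq2 alone, other normalization, no filter on low counts, no limit on log2FC or FPM, no set block, the animal as block, 2 groups only, complete sets only and leaving out each VSMC set. With no filter on low counts, the DESeq2 FDR covered genes whose mean was 5 normalized counts or more, a rule added after the data were seen because DESeq2's own automatic filter gave values that varied from run to run. The fits without EC sets 9, 11 and 13 and the comparison of WT VSMC with EC effects were added after seeing the data.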

Additional observations from a re-analysis of the deposited data

Results flagged for a closer look

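A library was listed where its gap to the nearest other library of its group, divided by the range of the group, exceeded Dixon's 95% critical value. Of 99 groups (a gene in a cell type and condition) 14 were listed. The chance rate of about 1 in 20 holds for normally distributed values, whereas the ratios were taken on FPM without logs. The 14 therefore cannot be judged against that rate, and the groups of a set are not independent. In each case the library was the highest of its group. For Rgs5 these were KO set 6 in Control with 465 FPM (others 37.8 to 88.2) and EC set 16 with 299 FPM in Control, 166 FPM with HG + FFA and 261 FPM with AII + NA (others at most 109, 67.8 and 103 FPM). For Rgs4 they were WT set 1 with 5.70 FPM under AII + NA and 5.71 FPM under ALL (others at most 0.869 and 0.565 FPM). For Rgs16 they were WT set 1 with 58.6 FPM under HG + FFA and 38.5 FPM under ALL (others at most 7.86 and 5.23 FPM), and EC set 13 with 27.4 FPM in Control and 22.1 FPM under HG + FFA (others at most 9.11 and 9.0 FPM). For Rgs3 EC set 14 had 219 FPM under HG + FFA and 283 FPM under AII + NA (others at most 131 and 154 FPM). KO set 8 had 54.7 FPM of Rgs12 and 10.4 FPM of Rgs17 in Control (others at most 39.1 and 2.12 FPM).

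The stressor effect on Rgs3 differed between WT VSMC and EC in the joint fit, by 0.93 on the log2 scale for AII + NA and by 0.89 for ALL. Both values come from a comparison added after seeing the data.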

How the results depend on the processing

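The number of the 9 RGS genes called was the quantity that depended on the processing. In WT VSMC under AII + NA it was 1 (Rgs3) and became 0 without the replicate block, and 0 to 1 when a set was left out. Under ALL it was 0 in WT VSMC, with 2 (Rgs3, Rgs5) when the log2FC limit was dropped and 0 to 1 when a set was left out. In EC dropping that limit gave 2 (Rgs3, Rgs12) under HG + FFA and 1 (Rgs3) under ALL. With no filter on low counts, none of the 9 genes was called for the genotype difference of the AII + NA effect, whereas Rgs3 was called there when DESeq2's own automatic filter was used in place of a fixed mean count. The values under that automatic filter varied from run to run and are not given. For EC against WT VSMC in Control, 1 (Rgs10) became 2 with DESeq2 alone, 0 with no filter on low counts, 0 to 0 when a WT set was left out and 2 without EC sets 9, 11 and 13. For the difference of WT VSMC and EC, 1 (Rgs3) became 0 for AII + NA without the replicate block and 0 to 1 when a WT set was left out, and 0 for ALL without the block. The Egfr difference was -7.98 without KO set 5, where the exact permutation p was 0.0571, the smallest possible for 4 against 3. Of 30 effects of single genes with an unadjusted p under 0.05, the 280 alternative values kept their direction, 32 lost and 6 gained the FDR threshold. No paired analysis was possible because the sets differ between genotypes for KO against WT VSMC in Control, and because only 1 Control pair of WT VSMC and EC comes from the same animal. EC sets were not left out one at a time, as the groups hold more than 5 libraries. Rgs4, Rgs16 and Rgs17 had 0 counts in some EC libraries, where depth limits what can be said.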

Other observations

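After each gene was centred on its set means, the genes most like Rgs3 over the 69 libraries, among 12801 genes, were Bok (r = 0.73), Ccn2 (r = 0.71), which encodes a secreted matrix protein, and Map6 (r = 0.71). In WT VSMC alone r was 0.70, 0.89 and 0.58 for these genes. For Rgs12 they were Mroh1 (r = 0.84), Agpat3 (r = 0.78) and Abca7 (r = 0.77), for Rgs19 Phgdh (r = 0.73), for Rgs5 Ctso (r = 0.68) and for Rgs4 Efcab2 (r = 0.68). The other leading genes were Polr2j for Rgs16 (r = 0.65), Nudt1 for Rgs10 (r = 0.64), Pik3r3 for Rgs17 (r = 0.63) and Spcs3 for Rgs2 (r = 0.63). These values describe libraries that share sets, treatment and depth, and they carry no test.

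In 4 cases VSMC and EC were taken from 1 animal. KO set 6 and EC set 16 shared an animal, and both had the highest set mean of Rgs5 of their cell type, with 374 and 239 FPM. In the other 3 pairs the set means of Rgs5 were 29.4 FPM in WT set 1 and 2.77 FPM in EC set 9, 13.6 FPM in WT set 2 and 5.31 FPM in EC set 10, and 25.5 FPM in KO set 7 and 7.32 FPM in EC set 15. Rgs16 went the other way in the animal of WT set 1 and EC set 9. Its set mean was the highest of WT VSMC there (45.4 FPM) and the lowest of EC (0.524 FPM). Whether the levels go with the animal was not tested. EC sets 17 and 18 came from 1 animal and had 36.8 and 184 FPM of Rgs3 in Control.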
